A study of Mus musculus with 14 samples.

Results

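Naive B cells of the mouse spleen were compared with every antigen-experienced B cell subset of the series, all 14 arrays taking part: 3 arrays of naive cells against 11 arrays of germinal center cells (3), plasma cells (4) and memory cells (4). The antigen-experienced side was the equal-weight mean of the 3 subset means, so that a subset with 4 arrays counted no more than the subset with 3. Calls were made where the adjusted p lay under 0.05 (limma, Benjamini-Hochberg over 18193 genes). It was counted as lost in every subset when it was called in that mean and lay below naive cells, called and by at least 1 on the log2 scale, in germinal center, plasma and memory cells alike. Genes gained in every subset were counted the same way upwards. Of the 18193 genes, 115 were lost (0.632%) and 42 were gained (0.231%).

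All mice were male C57Bl/Ka, and all cells came from spleen. Naive cells were sorted from unimmunized mice aged 4 to 8 weeks as B220+ CD23+ IgD+ cells with low IgM and the lambda light chain. The other cells came from mice immunized with NP-CGG, a hapten coupled to chicken gamma globulin, in alum, and all of them bound NP. Plasma cells (mice of 5 to 9 weeks, day 7) were low in B220 and IgM, carried lambda and syndecan-1 and lacked PNA binding. Germinal center cells (6 to 10 weeks, day 14) were B220+ and PNA+ with low CD38, low lambda and low or no IgM. Memory cells (14 to 18 weeks of age, 10 to 12 weeks after immunization) were B220+, high in CD38, positive for lambda and without IgM, IgD or PNA binding. The labels give 100 µg for these mice, and no dose for plasma replicate 1. Myeloid, erythroid and T cells were removed in every sort by their surface markers (CD11b, Gr-1, Ter119, CD3, CD4, CD8), as were CD5+ cells. Immunization, age, NP binding and the gates on CD23 and IgD differ between naive cells and all the others, so their shares in a difference cannot be told apart from antigen experience. Whether replicates are separate animals is not in the labels, so p-values reflect only how far these samples differ from each other, and that spread may be technical.

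A naive follicular B cell is a resting cell that recirculates between blood and follicles and carries the low-affinity IgE receptor CD23, the Fc receptor for IgM and inhibitory coreceptors. Once it binds antigen and receives T cell help it divides, may mutate and switch its antibody genes in a germinal center, and leaves as an antibody-secreting plasma cell or as a resting memory cell. Germinal center cells and early plasma cells divide while memory cells rest, so a gene that differs from naive cells in all 3 subsets is shared by dividing and resting, secreting and non-secreting cells. In the bulk RNA of a sort, fewer cells with a transcript and less of it per cell cannot be told apart.

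Between 52.7% and 66.9% of genes lay above the background of their array, taken as its brightest unspiked bacterial control (an intensity of 11 to 16.1). The ratio of the 3' to the middle actin probe set, a sign of shortened RNA, was 4.39 to 5.30 on naive arrays, 4.15 to 5.33 on memory arrays, 5.47 to 6.91 on plasma arrays and 6.11 to 17.6 on germinal center arrays. The same ratio for GAPDH averaged 10.6 on naive, 12.0 on memory, 6.91 on plasma and 9.40 on germinal center arrays. The controls thus ordered the groups differently. The part of RNA quality in the results was not tested beyond a fit with the actin ratio as a covariate, which gave 94 lost and 40 gained genes. Levels below are intensities, given per array or as the antilog of a group's mean log2 value, and differences are log2 values from naive cells with their standard error.

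In the mean of the 3 subsets 3350 genes were called (18.4%), 1315 higher (7.23%) and 2035 lower (11.2%) than in naive cells. Taken singly, germinal center cells had 19.5% of genes called (8.37% higher, 11.1% lower), plasma cells 30.3% (14.2% and 16.1%) and memory cells 5.57% (2.31% and 3.26%). Most calls in the mean were not shared. Of the 1315 higher genes, 616 also passed with a difference of at least 1 in germinal center cells, 830 in plasma cells and 163 in memory cells, and 42 (3.19%) did so in all 3. Of the 2035 lower genes the counts were 1048, 1444 and 212, and 115 (5.65%) passed in all 3. Memory cells were most often the missing subset: 363 of the 452 higher genes and 674 of the 754 lower genes that passed in exactly 2 subsets passed in germinal center and plasma cells. The balance of directions depended on scaling. Higher genes made up 39.3% of the calls as deposited, 46.8% after quantile normalization, 25.8% after centring on each array's median and 65.3% after centring on 6116 bright genes, those whose log2 values averaged 6 or more. The median difference of these bright genes was -0.21 and that of all genes 0.04.

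The 3 subsets were compared with the same 3 naive arrays, so a gene that passed in all of them did not pass 3 independent tests. The arrays of naive cells lay apart from all 11 others for 112 of the 115 lost and 39 of the 42 gained genes. The exceptions were Slc16a7, Pard6g and Esrp2 among lost genes and Abcb1b, Dyrk3 and Zbtb20 among gained genes. The choice of members largely fixes this separation, and the share of all genes with such a separation was not counted. All 115 lost genes lay above background on every naive array, and 59 of them on all 14 arrays. Of the 42 gained genes 22 lay above background on all 3 naive arrays and 3 (Zfp982, Zdhhc2 and Pclaf) on none. How many of all genes did so was not counted.

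The largest shared losses are described first. Ranked by the smallest of the 3 differences, and with immunoglobulin genes left out, the first 14 were Ms4a4c, Tsc22d1, Gpat3, Eps8, Ssbp2, Ephx1, Prss12, Rtp4, Car2, Ms4a6c, Cnksr3, Calcrl, Gch1 and Tifa. The immunoglobulin variable gene Ighv14-2 ranked ahead of all of them. Its level was 5294.6 in naive, 44.2 in germinal center cells, 8.7 in plasma cells and 355.2 in memory cells, all sorted with the lambda light chain but only the immunized ones with NP.

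**Figure D1:**
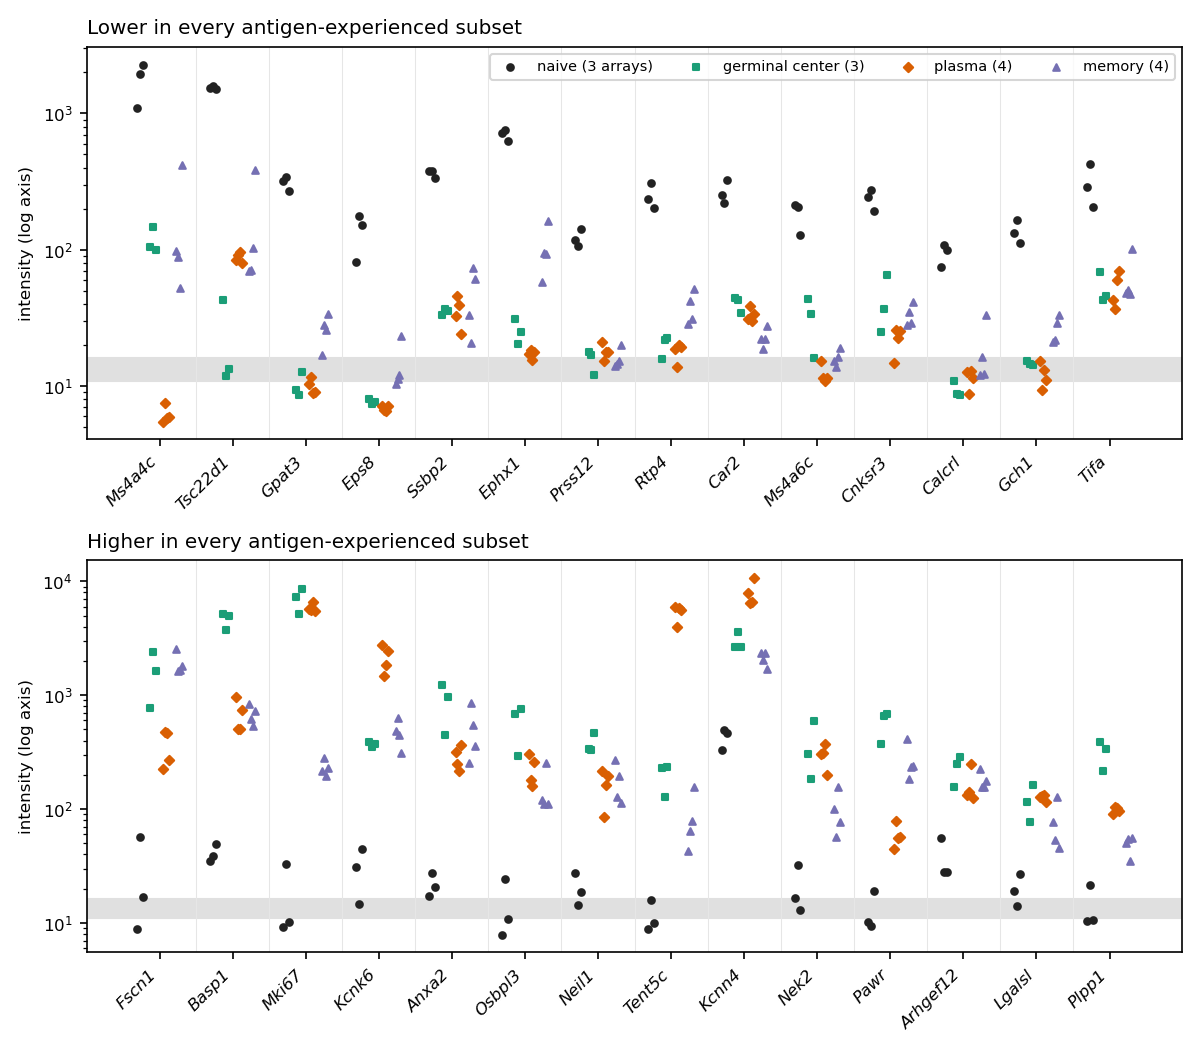
Intensity on each of the 14 arrays, on a log axis, for the 14 genes lost and the 14 genes gained in every subset with the largest smallest difference. Each point is 1 array, and the grey band spans the arrays' background of 11 to 16.1. The naive arrays lie above all others in the upper panel and below all others in the lower panel, and memory replicate 4 is the memory array nearest to naive cells for Ms4a4c (416.9), Tsc22d1 (385.3) and Ephx1 (162.8).

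Ms4a4c, a 4-pass membrane protein of the CD20 family, read 1098.8, 1952.3 and 2269.6 on the naive arrays. It read 104.3, 145.9 and 98.9 in germinal center cells, 5.5, 7.5, 5.8 and 5.9 in plasma cells, and 97.9, 88.6, 52.3 and 416.9 in memory cells. Plasma cells were below background on all 4 arrays, which puts the loss there at 123-fold or more. The difference was -3.89 ± 0.54 in germinal center cells and -3.85 ± 0.51 in memory cells, and the mean of the subsets fell by 5.28 ± 0.43 (adjusted p = 1.03e-06). That mean includes the plasma values below background, so it is not a measured size. Ms4a6c, of the same family, fell from 211.6, 205.8 and 127.6 in naive cells to between 11 and 43.7 on the other arrays (-3.32 ± 0.24, adjusted p = 3.66e-07). Only 1 of its 2 probe sets had that direction, and the call was lost when they were averaged.

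Both MS4A genes are also known from monocytes. Of 32 measured myeloid and dendritic cell markers 4 were lower and 3 higher in the mean of the subsets, against 11.2% and 7.23% of all genes. Of the 32, 10 lay above background on every naive array, 9 on every germinal center, 14 on every plasma and 11 on every memory array. Itgam, Cd68 and Lyz2 stood at 7.7, 8.1 and 10.7 in naive cells, below background. Tyrobp stood at 147.1 in naive, 13.8 in germinal center cells, 21.0 in plasma cells and 92.5 in memory cells. Adgre1 stood at 51.2 in naive cells and at 19.9, 27.9 and 26.5 in the others. The summed level of the list was 11995 to 13183 on naive arrays, 4853 to 8022 on germinal center, 6588 to 8780 on plasma and 11393 to 12668 on memory arrays, most of it Ctss and Cybb, which B cells express. Its part in the losses was not tested.

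Tsc22d1, a leucine zipper protein induced by TGF-beta, was even across naive arrays at 1542.6, 1574.6 and 1500.3. It read 42.5, 11.8 and 13.3 in germinal center cells, 83.8, 91.3, 96.5 and 79.6 in plasma cells, and 69.5, 70.5, 102.4 and 385.3 in memory cells. The loss was deepest in germinal center cells (-6.35 ± 0.56), and the mean fell by 4.73 ± 0.45 (adjusted p = 3.57e-06). Of its 7 probe sets 5 had that direction.

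The promoters of these leading losses are shown as the 250 bases before the annotated start (RefSeq, GRCm38.p6), read along the gene's strand. Capitals mark a match to any of 3 motifs searched on both strands: the interferon-stimulated response element (GAAA, any 2 bases, GAAA), an E2F site TTTNNCGC and the cell cycle homology region TTTGAA. Both windows lie on the plus strand, that of Ms4a4c at chr19:11407411-11407660 and the first of 5 annotated for Tsc22d1 at chr14:76414711-76414960. Each holds 1 match, to TTTGAA, 162 and 8 bases before the start. The same letters occur in 11.93% of all windows.
Ms4a4c: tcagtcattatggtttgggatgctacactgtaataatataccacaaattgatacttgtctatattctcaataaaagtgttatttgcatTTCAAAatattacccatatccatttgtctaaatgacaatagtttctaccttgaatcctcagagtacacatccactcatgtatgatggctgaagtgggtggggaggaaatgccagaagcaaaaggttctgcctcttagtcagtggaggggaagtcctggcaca
Tsc22d1: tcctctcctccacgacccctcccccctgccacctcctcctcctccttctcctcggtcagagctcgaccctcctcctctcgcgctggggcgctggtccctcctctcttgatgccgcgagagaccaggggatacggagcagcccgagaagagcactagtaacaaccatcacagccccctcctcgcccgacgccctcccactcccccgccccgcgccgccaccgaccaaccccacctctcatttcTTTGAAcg

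Gpat3, which starts glycerolipid synthesis, read 321.1, 340.4 and 270.0 in naive cells and 8.6 to 12.6 in germinal center, 8.9 to 11.6 in plasma and 16.9 to 33.7 in memory cells. Germinal center and plasma cells lay below background, so the losses there were at least 21.8-fold and at least 22.5-fold. The memory difference was -3.61 ± 0.21. Eps8, an actin-capping adaptor of receptor kinases, fell from 81.8, 178.1 and 152.0 to at most 8.0 in germinal center and 7.1 in plasma cells, at least 9.21-fold and at least 9.49-fold. Its memory arrays read 10.3, 11.3, 12.1 and 23.4, of which 1 lay above background. Ephx1, the microsomal epoxide hydrolase, fell from 718.0, 761.0 and 623.4 to 20.4 to 31.0 in germinal center, 15.6 to 18.5 in plasma and 58.4 to 162.8 in memory cells (mean -4.34 ± 0.22, adjusted p = 1.19e-08).

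For a few genes the loss had nearly the same size in all 3 subsets. Ssbp2, a partner of LIM-domain transcription complexes, read 379.8, 378.7 and 335.1 in naive cells. It read 33.2, 36.7 and 35.6 in germinal center cells, 32.9, 45.9, 39.2 and 24.3 in plasma cells, and 33.4, 20.9, 73.8 and 61.1 in memory cells. The 3 differences were -3.37 ± 0.37, -3.39 ± 0.34 and -3.11 ± 0.34. Prss12, the secreted protease neurotrypsin, fell from 117.3, 107.1 and 142.6 to levels of 15.3, 17.9 and 15.8, differences of -2.99 ± 0.19, -2.76 ± 0.18 and -2.94 ± 0.18. Tifa, an adaptor that links receptors to TRAF6, fell from 289.8, 423.8 and 206.7 to levels of 51.3, 51.0 and 58.5. Frmd6, a band 4.1 domain protein linked to Hippo signalling and outside the first 14, went from 67.9 to 16.6, 19.3 and 18.0. It was named after its values were seen.

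Car2, carbonic anhydrase 2, was lowest in memory cells. It read 250.9, 220.6 and 324.1 in naive cells, 44.3, 42.8 and 34.4 in germinal center cells, 31.2, 38.4, 30.2 and 33.9 in plasma cells, and 22.2, 18.6, 22.2 and 27.5 in memory cells. The 4 memory arrays lay below all others, with a difference of -3.55 ± 0.17. Memory cells had the largest loss for 5 of the 115 genes only, against 67 for plasma and 43 for germinal center cells. Among the remaining genes of the 14, Rtp4, a receptor-trafficking chaperone induced by interferon, fell by 3.38 ± 0.19 and Gch1, the first enzyme of tetrahydrobiopterin synthesis, by 3.03 ± 0.17. Cnksr3, a scaffold of kinase signalling, fell by 2.95 ± 0.24 and Calcrl, a receptor for calcitonin gene-related peptide, by 2.94 ± 0.25. Calcrl lay below background on every germinal center array and was not kept in every subset with probe sets averaged.

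Genes of follicular B cell identity were lower almost as a group in the mean, and 5 of them were lower in every subset. Of 28 measured genes 25 were called lower and 0 higher, against 11.2% and 7.23% of all genes, and the list median was -2.25 against 0.04. By subset, 20 were lower in germinal center cells, 27 in plasma cells and 5 in memory cells, where the backgrounds are 11.1%, 16.1% and 3.26%. Those 5, Satb1, Fcmr, Cd72, Cd55 and Fcer2a, are the members lost in every subset, against 0.632% of all genes. The complement receptor gene Cr2, by contrast, stood at 2931.7 in naive and 3461.4 in memory cells (0.24 ± 0.15, adjusted p = 0.459) while plasma cells stood at 48.7.

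Satb1, which folds chromatin into loops, read 1286.9, 1175.7 and 1329.7 in naive cells and 51.8, 33.9 and 104.9 in germinal center cells. It read 20.8, 16.7, 16.5 and 23.0 in plasma cells and 363.5, 324.0, 423.1 and 606.8 in memory cells. Memory cells thus kept an intermediate level (-1.60 ± 0.31, adjusted p = 0.00652). Fcmr, the Fc receptor for IgM, followed the same steps. Its level was 4925.2 in naive, 1739.9 in memory, 668.9 in germinal center and 37.4 in plasma cells, and no 2 groups overlapped. Cd72, an inhibitory coreceptor, stood at 1812.1, 717.8, 308.4 and 14.0 in that order, again without overlap.

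Cd55, which protects cells from complement, read 2123.2, 1503.6 and 2132.3 in naive cells and 1059.2, 386.5, 729.7 and 1218.0 in memory cells. Germinal center and plasma cells read 10.5 to 30.6. Its memory difference of -1.29 ± 0.33 was close to the threshold (adjusted p = 0.035). The place of Cd55 among the lost genes was not kept without naive replicate 1, 2 or 3 or without memory replicate 2 or 3. Fcer2a, the gene of CD23, on which naive cells alone were sorted, stood at 1681.8 in naive, 709.6 in memory, 251.6 in germinal center and 13.5 in plasma cells. It was not kept without the same arrays, was kept under 6 of 11 other alternatives, and the gate bears on it directly.

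Of 29 measured Kruppel-like factors and antiproliferative genes of quiescence 22 were lower and 1 higher in the mean (median -1.01), against 11.2% and 7.23% of all genes. By subset 20 were lower in germinal center cells, 23 in plasma cells and 3 in memory cells, where 11.1%, 16.1% and 3.26% of all genes were, and these counts were not tested against each other. Klf2, which controls recirculation of resting lymphocytes, read 929.0, 714.3 and 768.0 in naive and 588.4, 761.6, 861.1 and 692.1 in memory cells, overlapping ranges (-0.15 ± 0.30, adjusted p = 0.882). Germinal center and plasma cells read 24.3 to 81.4. Slfn2, a Schlafen gene needed for lymphocyte quiescence, was the list's only member lost in every subset, as were 0.632% of all genes. It read 509.0, 563.2 and 295.3 in naive cells, 37.4, 64.7 and 44.5 in germinal center cells, 58.7, 71.3, 66.0 and 94.8 in plasma cells, and 90.0, 91.8, 123.0 and 153.3 in memory cells (mean -2.60 ± 0.23, adjusted p = 1.89e-06).

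Interferon-inducible genes contributed 5 lost genes from a list of 32: Rtp4, Ifit2, Oas1a, Usp18 and Oasl1. Of all genes 0.632% were lost. In the mean 23 of the 32 were lower and 2 higher, against 11.2% and 7.23% of all genes, with a median of -0.81. By subset 22 were lower in germinal center cells, 20 in plasma cells and 6 in memory cells, against 11.1%, 16.1% and 3.26% of all genes. In plasma cells 6 were higher, against 14.2% of all genes. Isg20 was among the higher genes, at 197.9 in naive and 2647.7 in plasma cells.

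Ifit2, which binds viral RNA, varied among naive arrays, at 258.5, 132.5 and 376.5. It read 27.0, 20.6 and 26.8 in germinal center cells, 11.4, 9.0, 10.2 and 13.3 in plasma cells, and 28.8, 72.8, 60.2 and 106.9 in memory cells. The groups did not overlap, and plasma cells lay below background (at least 17.1-fold), but the call in every subset was not kept without naive replicate 3. Oas1a, a sensor of double-stranded RNA, read 454.0, 350.7 and 177.0 in naive cells and 116.3 to 166.4 in memory cells, so that the lowest naive array lay just above the highest memory array. Usp18, which removes ISG15 and damps the interferon receptor, was dim throughout at 28.3 to 44.6 in naive cells and 9.8 to 19.4 on the other arrays (-1.55 ± 0.20, adjusted p = 7.61e-05). Oasl1 fell from 87.0 to 129.2 to between 33.2 and 54.8 (-1.33 ± 0.16), and was not kept with arrays centred on bright genes.

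Another 6 genes among the 115 are known interferon-inducible genes, named after their values were seen: Slfn8, Cmpk2, Ifi47, Ifi27l2a, Ddx60 and Trim14. Slfn8 fell from 1418.8, 1028.9 and 1368.6 in naive cells to 84.2 to 93.0 in germinal center, 34.2 to 43.4 in plasma and 296.2 to 371.3 in memory cells (mean -3.61 ± 0.12). Cmpk2 read 221.5, 462.9 and 566.3 in naive and 58.6 to 170.5 in memory cells. Only 1 of its 2 probe sets had that direction. Its call in every subset was not kept with probe sets averaged, with values floored at 16, or without naive replicate 2 or 3. Ifi27l2a was lowest in memory cells, at 209.6 to 323.7 against 809.2 to 1404.0 in naive cells, and was kept in 4 of 14 fits that left out 1 array. Upstream of these genes, the interferon receptor chain Ifnar1 fell from 416.3, 434.5 and 388.4 to 149.4 to 246.7 in memory, 113.6 to 174.5 in plasma and 32.5 to 82.9 in germinal center cells. Its memory call (-1.17 ± 0.28, adjusted p = 0.0266) was kept in 9 of the 14 such fits. The signal transducer Stat4 stood at 216.3, 15.1, 52.1 and 101.5 in naive, germinal center, plasma and memory cells.

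**Figure D2:**
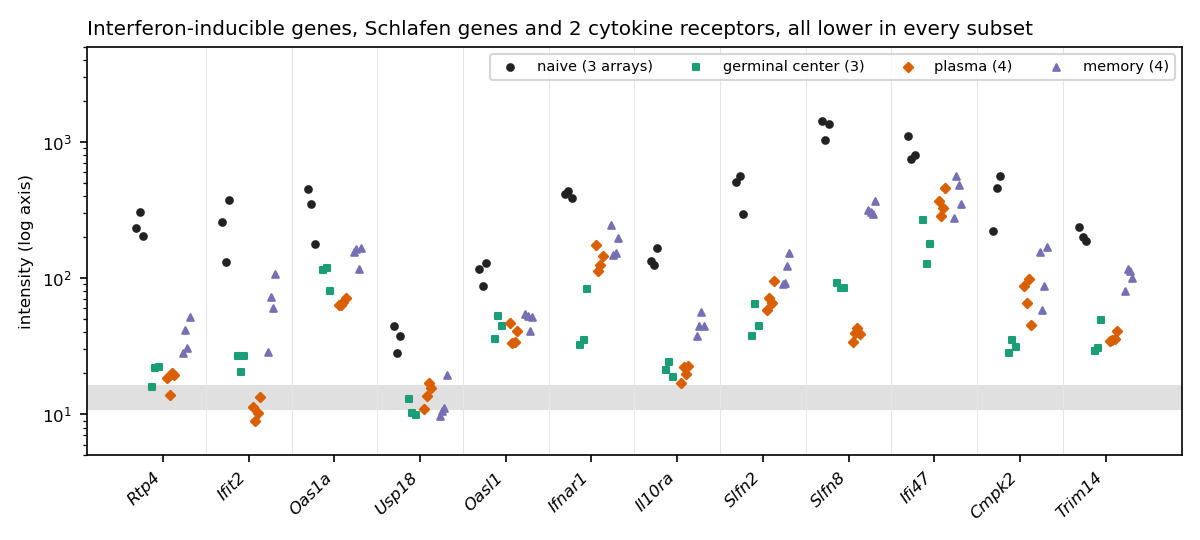
Intensity on each array, on a log axis, of interferon-inducible genes, the Schlafen genes Slfn2 and Slfn8 and the receptor genes Ifnar1 and Il10ra, all lost in every subset. Each point is 1 array, and the grey band spans the arrays' background. Memory arrays mostly lie between naive arrays and those of the other 2 subsets, and naive arrays differ among themselves for Ifit2 (132.5 to 376.5), Oas1a (177.0 to 454.0) and Cmpk2 (221.5 to 566.3).

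The promoter of Oas1a is shown because it holds the interferon motif. Its 250 bases lie on the minus strand at chr5:120907526-120907775, and the capitals near the end are 2 overlapping matches to that motif, beginning 20 and 14 bases before the start. The earlier capitals, 98 bases before it, match TTTGAA on the other strand.
Oas1a: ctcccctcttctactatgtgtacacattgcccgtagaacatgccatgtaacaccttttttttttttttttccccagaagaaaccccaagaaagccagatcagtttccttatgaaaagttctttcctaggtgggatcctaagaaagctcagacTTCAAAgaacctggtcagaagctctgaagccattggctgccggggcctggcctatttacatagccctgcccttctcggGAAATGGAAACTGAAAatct
Of 91 lost genes with a window in the table, 9 held the interferon motif (11 of 125 windows, 8.8%): Calhm6, Crybg1, Ddx60, Esr1, Klhl22, Oas1a, Slfn8, Stat4 and Tdrd7. Over all measured genes 473 of 18109 windows did (2.61%), among gained genes 1 of 38 (2.63%), and in the interferon list 12 of 29 (41.38%). These shares are descriptions of letters in a short window. Of the 5 listed interferon genes lost in every subset, 3 had a window and 1 held the motif.

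Receptor and signalling genes were lost singly. Of 33 genes of antigen receptor signalling and its coreceptors 20 were lower and 0 higher in the mean (median -0.76). Of all genes 11.2% were lower and 7.23% higher. Cd72 alone of the 33 was lost in every subset, as were 0.632% of all genes. Among 24 cytokine receptors 9 were lower and 3 higher, again against 11.2% and 7.23% of all genes. Their median of -0.03 changed sign with arrays centred on bright genes (0.18). Lost in every subset, as were 0.632% of all genes, were Ifnar1 and Il10ra, the ligand-binding chain of the interleukin 10 receptor. Il10ra read 133.1, 125.7 and 166.2 in naive cells, 18.7 to 24.2 in germinal center, 17.0 to 22.7 in plasma and 37.4 to 56.1 in memory cells (mean -2.39 ± 0.14, adjusted p = 4.28e-08). It was not kept in every subset with probe sets averaged. Named after their values were seen, Acvr2a, an activin receptor, stood at 72.4 in naive cells and at 24.3, 25.3 and 29.9 in germinal center, plasma and memory cells. Smad1, which carries BMP signals, stood at 370.5 in naive cells and at 174.5, 11.5 and 108.3. The smallest of its differences, -1.09, was in germinal center cells, and it was kept in 11 of 14 fits that left out 1 array and under 5 of 11 other alternatives.

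Among the genes gained in every subset, again ranked by the smallest difference, the first 14 were Fscn1, Basp1, Mki67, Kcnk6, Anxa2, Osbpl3, Neil1, Tent5c, Kcnn4, Nek2, Pawr, Arhgef12, Lgalsl and Plpp1. Fscn1, which bundles actin filaments, read 8.8, 57.3 and 16.8 in naive cells. It read 776.7, 2398.4 and 1633.5 in germinal center cells, 222.8, 476.9, 469.2 and 267.1 in plasma cells, and 2538.9, 1634.5, 1648.4 and 1817.0 in memory cells. Memory cells here had the largest difference (6.52 ± 0.53, adjusted p = 5.72e-06), which held for 4 of the 42 gained genes. Of the naive arrays 1 lay below background and replicate 2 was the highest of the 3.

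Basp1, a membrane-bound regulator of the cortical cytoskeleton, read 34.8, 39.1 and 49.7 in naive cells. It read 5185.6, 3705.8 and 4990.6 in germinal center cells, 956.1, 509.2, 508.0 and 734.3 in plasma cells, and 830.0, 615.3, 538.9 and 731.4 in memory cells. Plasma and memory ranges overlapped, with differences of 4.00 ± 0.23 and 4.04 ± 0.23, while germinal center cells stood higher at 6.81 ± 0.25. Anxa2, a calcium-dependent membrane binder, rose from 17.2, 27.7 and 20.7 to 1236.4, 450.5 and 962.8 in germinal center, 214.2 to 363.4 in plasma and 256.4 to 859.4 in memory cells (mean 4.46 ± 0.34, adjusted p = 4.68e-07). Its relative Anxa1 went the other way, from 195.4, 268.2 and 233.1 in naive cells to 17.1 to 48.1 in germinal center and plasma cells and 42.7 to 116.2 in memory cells (mean -2.75 ± 0.28). Of the 2 probe sets of Anxa1 1 had that direction, and averaging them ended the call in every subset. The list of 31 annexins, S100 and cortical cytoskeleton genes as a whole had 4 higher and 10 lower genes, against 7.23% and 11.2% of all genes. Its median of -0.11 turned to 0.09 with arrays centred on bright genes.

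The 250 bases before the starts of Fscn1 and Basp1 are shown as the leading gains. That of Fscn1 lies on the plus strand at chr5:142960105-142960354 and holds none of the 3 motifs. That of Basp1 lies on the minus strand at chr15:25413765-25414014 and holds 1 match to TTTNNCGC, 147 bases before the start, in capitals.
Fscn1: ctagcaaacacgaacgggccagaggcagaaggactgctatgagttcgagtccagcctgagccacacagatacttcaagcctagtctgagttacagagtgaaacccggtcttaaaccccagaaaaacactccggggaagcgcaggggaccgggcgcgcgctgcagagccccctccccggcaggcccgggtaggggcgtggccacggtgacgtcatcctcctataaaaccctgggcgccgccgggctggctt
Basp1: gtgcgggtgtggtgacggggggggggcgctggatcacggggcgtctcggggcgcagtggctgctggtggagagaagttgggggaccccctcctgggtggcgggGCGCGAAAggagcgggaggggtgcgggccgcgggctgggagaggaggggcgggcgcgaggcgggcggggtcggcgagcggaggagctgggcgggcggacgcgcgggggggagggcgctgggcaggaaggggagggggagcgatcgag

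The genes of a pair of potassium channels were among the first 14. Kcnk6, a 2-pore channel, read 31.1, 14.8 and 44.3 in naive cells and was highest in plasma cells, at 1468.6 to 2771.4. Germinal center cells read 352.5 to 389.7 and memory cells 311.8 to 633.9, overlapping ranges. Kcnn4, the calcium-activated channel KCa3.1 that sustains calcium entry in activated lymphocytes, was present in naive cells at 328.1, 496.6 and 467.6. It rose to 2643.6, 3618.1 and 2653.3 in germinal center cells, 7898.2, 6406.8, 6529.1 and 10730.8 in plasma cells, and 2352.0, 2023.2, 2361.1 and 1689.9 in memory cells (mean 3.09 ± 0.18, adjusted p = 3.88e-08).

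Other gains had varied roles. Tent5c, a poly(A) polymerase that stabilises antibody transcripts, stood at 11.2 in naive, 189.4 in germinal center cells, 5263.5 in plasma cells and 76.3 in memory cells. Pawr, a pro-apoptotic leucine zipper protein, was highest in germinal center cells (551.4) and lowest of the 3 subsets in plasma cells (57.6), against 12.1 in naive and 255.5 in memory cells. Arhgef12, an exchange factor for RhoA, rose by much the same in each subset, 2.67 ± 0.32, 2.14 ± 0.30 and 2.33 ± 0.30. Osbpl3, an oxysterol-binding protein, rose by 4.30 ± 0.36 in the mean and Neil1, a DNA glycosylase of base excision repair, by 3.45 ± 0.30. Plpp1, a lipid phosphatase, rose by 3.07 ± 0.22 and Lgalsl, a galectin-like protein, by 2.37 ± 0.28. Arhgef12 and Plpp1 were not kept in every subset with probe sets averaged. Naive cells lay above background on 1 of 3 arrays for Osbpl3, Plpp1, Tent5c and Pawr, so their rises are not measured sizes.

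Cell division genes rose in germinal center and plasma cells, and few of them rose in memory cells as well. Of 40 measured mitosis genes 37 were higher and 0 lower in the mean (median 3.09), with 39 higher in germinal center and 37 in plasma cells, but 3 higher and 1 lower in memory cells, whose list median was 0.09. Of 35 DNA replication genes 26 were higher and 2 lower in the mean (median 0.93), and in memory cells 1 was higher and 9 were lower (median -0.43). Of all genes 7.23% were higher and 11.2% lower in the mean, and 2.31% were higher and 3.26% lower in memory cells. Germinal center and plasma cells had 8.37% and 14.2% of all genes higher. The listed genes higher in every subset were Mki67, Cdca5 and Tk1, against 0.231% of all genes.

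Mki67, which coats mitotic chromosomes and marks dividing cells, read 9.2, 32.9 and 10.2 in naive cells. It read 7225.3, 5180.3 and 8588.6 in germinal center cells, 5748.4, 5569.3, 6522.4 and 5466.9 in plasma cells, and 214.1, 282.5, 196.9 and 230.2 in memory cells. The memory arrays lay close together, above every naive array and below every germinal center and plasma array (memory difference 3.97 ± 0.34, adjusted p = 9.1e-06). Only 1 of 3 naive arrays lay above background, so that difference is not a measured size. Cdca5, sororin, which holds sister chromatids together, read 12.1, 10.2 and 14.1 in naive cells and 82.4, 36.4, 29.0 and 24.0 in memory cells, against 2247.0 or more elsewhere. Its memory difference was 1.66 ± 0.31 (adjusted p = 0.00499), and it was not kept in every subset when values were floored at 16 or 16 was added before log2. Tk1, the S phase thymidine kinase, read 10.7 to 23.8 in naive and 44.0 to 59.9 in memory cells. Nek2, a centrosome kinase among the first 14, read 13 to 32.3 in naive and 56.8 to 156.1 in memory cells, and Ncapd3, a condensin II subunit named after its values were seen, stood at 130.9 in naive and 387.4 in memory cells. Other mitotic genes stood near naive levels in memory cells, among them Top2a (43.0 in naive, 60.7 in memory, 2707.1 in germinal center cells) and Cdk1 (10.2, 10.8 and 292.9).

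The promoters of Mki67 and Cdca5 are shown because they hold the cell cycle motifs. That of Mki67 lies on the minus strand at chr7:135716380-135716629 with TTTGAA 116 and 98 bases before the start. That of Cdca5 lies on the plus strand at chr19:6084847-6085096 with an E2F match 40 bases and TTTGAA 17 and 9 bases before the start. The window of Tk1, the other listed cell division gene higher in every subset, held no match to any motif searched and is not shown.
Mki67: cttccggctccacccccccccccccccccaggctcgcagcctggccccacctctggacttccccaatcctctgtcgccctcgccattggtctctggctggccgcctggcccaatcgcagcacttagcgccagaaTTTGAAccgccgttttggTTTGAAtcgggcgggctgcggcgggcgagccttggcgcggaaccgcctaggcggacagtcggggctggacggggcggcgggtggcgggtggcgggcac
Cdca5: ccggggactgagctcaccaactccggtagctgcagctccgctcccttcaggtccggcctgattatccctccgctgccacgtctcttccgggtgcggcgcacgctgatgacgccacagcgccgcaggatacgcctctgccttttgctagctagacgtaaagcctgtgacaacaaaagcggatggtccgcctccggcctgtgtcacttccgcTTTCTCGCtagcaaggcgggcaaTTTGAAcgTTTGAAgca
In the mitosis and replication lists together 34.72% of 72 windows held TTTGAA and 22.22% held TTTNNCGC, against 11.93% and 5.84% of all windows. Among gained genes the shares were 13.16% and 5.26%, and among lost genes 11.2% and 4.8%.

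Of 4 measured genes of antibody constant regions and J chain, 3 were higher in the mean and 2, Jchain and Ighg3, in every subset. Of all genes 7.23% and 0.231% were. Jchain, which joins IgM and IgA monomers, read 8.7, 14.9 and 8.7 in naive cells, 2027.3, 1418.8 and 1677.6 in germinal center cells and 14629.5, 10767.0, 13195.5 and 13439.4 in plasma cells. Memory cells read 37.6, 28.5, 86.3 and 489.2 (2.98 ± 0.68, adjusted p = 0.0203), and Jchain was not kept in every subset without naive replicate 1 or 3. Naive cells lay above background on 1 of 3 arrays, so that difference is not a measured size. Ighg3, the IgG3 constant region, stood at 14.9 in naive, 96.9 in germinal center cells, 10980.8 in plasma cells and 263.9 in memory cells, with the memory arrays above the germinal center ones. Ighm did not pass in the mean with its brightest probe set (0.38 ± 0.29, adjusted p = 0.423), but passed with its 11 probe sets averaged (3.03, adjusted p = 8.33e-10), so its call rests on the probe set chosen. On the brightest one memory cells, sorted without surface IgM, read 3388.3, 4416.5, 5088.5 and 11705.8 against 5740.8 to 9436.9 in naive cells. The list of 49 genes of protein secretion had 26 higher and 0 lower genes in the mean (median 0.67). Of these 49, 48 were higher in plasma cells, 1 in germinal center and 0 in memory cells, and none in every subset. Of all genes 7.23% were higher in the mean, 14.2% in plasma, 8.37% in germinal center and 2.31% in memory cells.

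Of 27 measured genes known as markers of antigen experience 9 were higher and 5 lower in the mean, against 7.23% and 11.2% of all genes, and 11 were higher in memory cells, against 2.31%. Of the 27, Zbtb20 was gained in every subset, as were 0.231% of all genes. Zbtb20, a zinc finger repressor, read 133.0, 27.1 and 52.6 in naive cells, 497.6 to 531.1 in germinal center, 131.4 to 182.9 in plasma and 999.9 to 1514.3 in memory cells. Plasma and naive arrays overlapped, and the plasma difference was 1.45 ± 0.37 (adjusted p = 0.00783). Zbtb20 was not kept without naive replicate 2 or with probe sets averaged. Fas, the death receptor, rose in germinal center (3.55 ± 0.32) and memory cells (1.81 ± 0.30), while plasma cells missed the threshold (0.76 ± 0.30, adjusted p = 0.0669). Nt5e, the ectonucleotidase CD73, stood below background in naive and plasma cells and rose by at least 7.78-fold in germinal center and at least 7.36-fold in memory cells. Cd80, a costimulatory ligand, rose in memory cells alone among the 3 contrasts with naive cells (at least 5.16-fold), and Pdcd1lg2, the ligand PD-L2, likewise passed upwards in memory cells (1.96 ± 0.24).

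**Figure D3:**
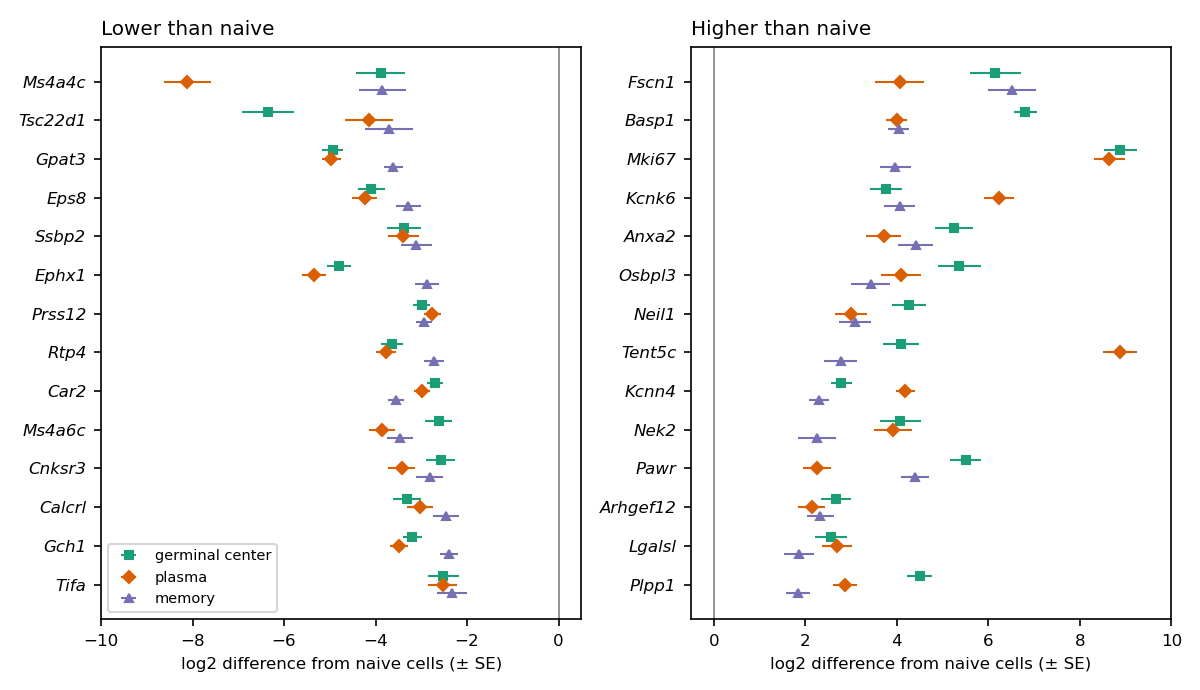
The log2 difference from naive cells, with its standard error, in germinal center, plasma and memory cells for the same 14 lost and 14 gained genes. Memory cells lie nearest to 0 for Gpat3 (-3.61), Ephx1 (-2.87) and Gch1 (-2.39), whereas Car2 is lowest (-3.55) and Fscn1 highest (6.52) in memory cells.

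Among the shared genes memory cells usually had the smallest difference. That was so for 88 of the 115 lost genes, whose median differences were -2.26 in germinal center cells, -2.53 in plasma cells and -1.46 in memory cells, and for 23 of the 42 gained genes, with medians of 2.92, 2.92 and 1.93. Over all genes, too, memory cells had the fewest calls against naive cells, 5.57% against 19.5% in germinal center and 30.3% in plasma cells. How often memory cells had the smallest difference over all genes was not counted. Tested directly, memory differed from both other subsets in 45 lost and 16 gained genes, and in 42 and 12 of these it lay between naive cells and both others. Over all genes 22.4% were called between germinal center and memory cells and 33.2% between plasma and memory cells. In 35 lost and 6 gained genes no pair of subsets differed at the threshold, which does not show that the subsets were alike. Memory replicate 4 was the memory array nearest to naive cells for 56 of the 115 lost genes and 20 of the 42 gained genes. Germinal center replicate 2, with the highest actin ratio, was the nearest germinal center array for 25 gained genes. For lost genes it was the nearest for 34, against 42 for replicate 1 and 39 for replicate 3. Without memory replicate 4 there were 124 lost genes, 107 of them shared with the full set, and 45 gained, 40 shared.

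Regulators of B cell fate did not belong to the shared genes. Bcl6, the repressor of the germinal center, stood at 1410.4 in naive, 2533.6 in germinal center, 391.3 in memory and 10.4 in plasma cells. Bach2, which delays plasma cell differentiation, stood at 982.9, 1808.1, 577.2 and 7.5 in that order, and the memory difference did not pass (-0.77 ± 0.35, adjusted p = 0.262). Irf4 stood at 735.9 in naive, 66.7 in germinal center, 591.8 in memory and 3357.6 in plasma cells, and its mean did not pass (-0.53 ± 0.26, adjusted p = 0.203) although germinal center and plasma cells did, in opposite directions. Without germinal center replicate 3 the mean of Irf4 passed (-0.70, adjusted p = 0.00845). Prdm1, which directs plasma cells, stood at 10.9 in naive and germinal center cells and at 520.6 in plasma and 20.2 in memory cells. Bcl2, which blocks cell death, stood at 620.0 in naive, 33.7 in germinal center cells, 13.2 in plasma cells and 1405.6 in memory cells, the memory difference being 1.18 ± 0.43 (adjusted p = 0.146). Ptprc, the gene of CD45, fell by 0.62 ± 0.14 in the mean (adjusted p = 0.00742), a call lost without naive replicate 3 (adjusted p = 0.0601).

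An equal-weight mean hides genes that pass in opposite directions. There were 53 genes that passed upwards in 1 or 2 subsets and downwards in the rest, all 3 at the threshold with a difference of at least 1. Memory cells were the odd subset in 28, plasma cells in 17 and germinal center cells in 8. Sdc1, the syndecan-1 on which plasma cells were sorted, read 103.4, 190.0 and 146.5 in naive cells, 7.3 to 12.3 in germinal center and 1965.1 to 3435.5 in plasma cells, and 6.4, 7.9, 7.4 and 49.9 in memory cells. Only 1 of its 4 probe sets had the direction of its mean. S1pr3, a sphingosine 1-phosphate receptor, rose in germinal center (3.29 ± 0.27) and memory cells (3.80 ± 0.26) and fell at least 13-fold in plasma cells. Cd86, a costimulatory ligand, likewise stood at 99.7 in naive, 606.8 in germinal center, 638.4 in memory and 15.0 in plasma cells. Ckap4, an endoplasmic reticulum membrane protein, fell in germinal center cells alone of these contrasts (-2.23 ± 0.32). Endou, a ribonuclease, fell in memory cells (-2.15 ± 0.38) and Mfhas1, a leucine-rich repeat protein, rose there (2.09 ± 0.28), each opposite to the other 2 subsets.

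**Figure D4:**
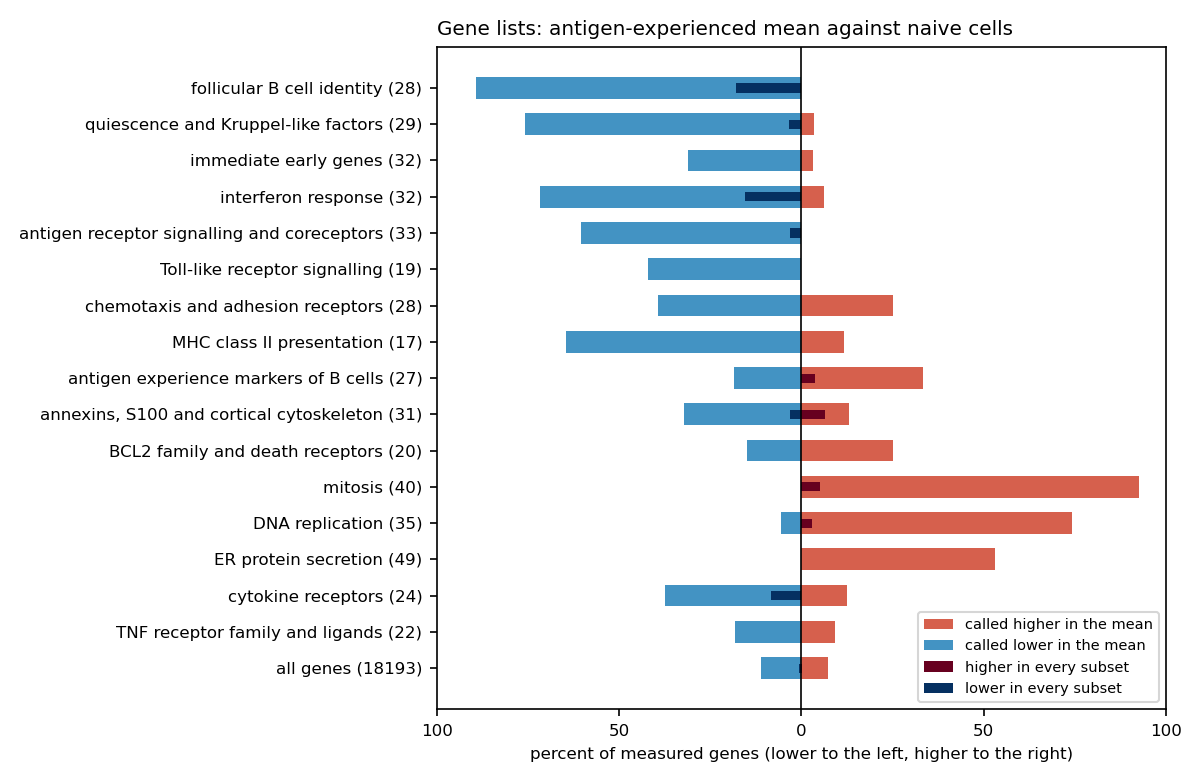
Percent of the measured genes of each list called lower (left) or higher (right) in the mean of the subsets, with the number measured in brackets and all 18193 genes at the bottom. Narrow dark bars show the share lost or gained in every subset, beside the share called in the mean, as for follicular identity (25 of 28 lower in the mean, 5 lost) and mitosis (37 of 40 higher, 2 gained).

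The remaining lists had no member lost or gained in every subset, against 0.632% and 0.231% of all genes. Their counts in the mean stand beside 11.2% of all genes called lower and 7.23% called higher. In memory cells 5.57% of all genes were called, 3.26% lower. Of 17 genes of MHC class II presentation 11 were lower and 2 higher in the mean (median -1.05), with 0 lower in memory cells. Of 32 immediate early genes 10 were lower and 1 higher (median -0.42), and 0 were called in memory cells. Of 19 genes of Toll-like receptor signalling 8 were lower, and of 22 TNF receptor family genes 4 were lower and 2 higher (median 0.13). Of 28 chemotaxis and adhesion receptors 11 were lower and 7 higher, with a median of 0.04 that turned to -0.08 with arrays centred on their median. Of 20 BCL2 family and death receptor genes 5 were higher and 3 lower.

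Markers of other cells and other B cell subsets were read against the 7.23% of all genes called higher and 11.2% called lower in the mean. Of 19 measured T cell markers 2 were higher and 1, Cd2, was lower in the mean, and the summed level of the list was 823 to 1123 on naive arrays, 376 to 456 on germinal center, 1062 to 1362 on plasma and 548 to 671 on memory arrays. Of 10 NK cell, 12 erythroid and platelet and 13 stromal markers 0 were called in the mean. Of 17 marginal zone and B1 cell markers 5 were higher and 5 lower in the mean. In memory cells 4 were higher and 0 lower (median 0.4), against 2.31% and 3.26% of all genes. Their summed level was 7655 to 8362 on naive, 4491 to 5862 on germinal center, 7627 to 9869 on plasma and 11695 to 16005 on memory arrays. Its part in the differences was not tested. Of 15 transitional B cell markers, which young naive cells may share, 1 was lower in the mean, Tifa. Naive arrays carried the B lineage genes Ms4a1 (7962.9) and Cd79b (6250.2).

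The counts depended on how the antigen-experienced side was formed. With all 11 arrays as 1 group, so that differences between subsets entered the error, 218 genes were called in place of 3350, and with plasma cells left out of the mean 2160 were. Centring arrays on bright genes gave 74 lost and 81 gained genes, averaging probe sets 75 lost, and of the 157 shared genes 33 lost and 18 gained ones were kept under all 25 alternative fits that left out an array or changed the scaling, filter, gene unit or model.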

How the data were processed

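Amplified total RNA of sorted cells was hybridised to Affymetrix arrays. The deposited table holds 1 linear intensity per probe set and array, and the submitters' processing notes name RMA. The chip definition and software are not given in the sources used here. Values were all positive and were put on the log2 scale as they stand, with nothing added and no rescaling. Of 45037 probe sets other than controls, 34945 carried 1 gene symbol, 932 several and 9160 none. For 18193 genes the probe set with the highest mean was used among those naming that gene alone (9010 genes had several). Symbols follow the platform annotation, of which 34741 probe sets matched the reference gene table.

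The fit used limma 3.58.1 under R 4.3.3 (lmFit and eBayes) on all 14 arrays with 1 mean per group, 10 residual degrees of freedom and no covariate. Tests were two-sided, and p-values were adjusted by Benjamini-Hochberg over all genes within each contrast. A fold is given as a bound over background where no array of the lower group lay above it. The number of arrays limits the precision.

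Named genes were the 14 lost and 14 gained genes with the largest smallest difference whose arrays did not overlap, without immunoglobulin and placeholder symbols, up to 4 shared members of each list, 6 genes of opposite directions and a fixed panel. The panel genes Ighd and Cd38 were not analysed here. The members, lists and panel were chosen with earlier results of these data known. On simulated data with 50 changed genes per size, 80% were recovered in every subset at a log2 difference of 1.5 and 92% at 2. Alternatives covered scaling, filters, floors, probe sets, variance models, the actin ratio, thresholds and each array left out. Promoter windows come from RefSeq (GRCm38.p6), and 91 of 115 lost and 33 of 42 gained genes had one. Python 3.11.15, pandas 2.3.3 and matplotlib 3.10.9 were used for summaries and figures.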

Additional observations from a re-analysis of the deposited data

Results flagged for a closer look

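Single arrays stood apart from the rest of their group for 8 of 128 groups of 4 arrays tested, each pair of a named gene with plasma or memory cells, where chance alone would mark about 1 in 20. In plasma cells, Ms4a6c read 15.2 on replicate 1 against 11 to 11.5 on the others, Tent5c read 3950.3 on replicate 2 against 5563.4 to 5933.4, Ighm read 14593.9 on replicate 2 against 20395.5 to 21776.1, and Arhgef12 read 248.6 on replicate 3 against 125.7 to 140.9. In memory cells, Tifa read 101.8 on replicate 4 against 47.3 to 50.8, Sdc1 read 49.9 on replicate 4 against 6.4 to 7.9, Osbpl3 read 252.6 on replicate 3 against 109.8 to 119.2, and S1pr3 read 4347.4 on replicate 2 against 2006.5 to 2162.4.

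Subsets with opposite differences from naive cells are given with their difference from each other as fitted with limma, on the log2 scale with standard errors. Germinal center minus plasma cells gave -8.10 ± 0.55 for Sdc1 and -6.38 ± 0.30 for Ckap4. Plasma minus memory cells gave -7.90 ± 0.24 for S1pr3, -5.41 ± 0.18 for Cd86 and 6.01 ± 0.35 for Endou. Germinal center minus memory cells gave -5.19 ± 0.28 for Mfhas1. These genes were chosen for their opposite directions, which fixes that the subsets differ, so the values are a description. The fitted values of Sdc1 and S1pr3 are not measured sizes, since Sdc1 lay above background on 0 of 3 germinal center arrays and S1pr3 on 0 of 4 plasma arrays.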

How the results depend on the processing

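The main counts were 3350 genes called in the mean, 115 lost and 42 gained in every subset. Centring arrays on bright genes gave 74 lost and 81 gained genes, of which 74 and 42 were among the main ones. Averaging probe sets gave 75 lost genes. An adjusted p under 0.01 gave 2061 called genes. With no minimum difference 239 genes were lost and 68 gained, and with a minimum of 2 these were 19 and 14. Without plasma cells in the mean 2160 genes were called, and with all 11 arrays as 1 group 218. Leaving out 1 array at a time gave 2351 to 3619 called, 101 to 124 lost (82 to 114 of the main ones) and 39 to 50 gained genes (33 to 42). With replicate numbers as a block, 3094 genes were called, 118 lost and 47 gained. The numbers did not pair the samples, since 6 of 19 same-numbered pairs had deviations correlated above 0.1 (median -0.012). In the equal-weight mean of the 64 named genes, 1530 of 1536 comparisons with an alternative kept the direction and side of the threshold. Of the rest 4 came to pass and 2 no longer passed, both for Ptprc. Most of these genes were named for large differences or for passing in every subset, which largely fixes this. Calls in every subset were less steady for some of them. Fcer2a was kept in 9 of 14 fits that left out 1 array and under 6 of 11 other alternatives, and Ifnar1 in 9 and 7. The causes were not tested. Usp18, Jchain and Cdca5, each near background in some of the groups, left the shared set when 16 was added to all values before log2. Oasl1, above background on every array, left it as well.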
